A study of Mus musculus with 2 samples.

Results

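TCRα clonotypes found in both the thymus and the spleen of iT-B-NDG mice were selected on the presence of the same CDR3 nucleotide sequence in the clone tables of both tissues. There were 700 of them among 14972 distinct TCRα clonotypes, or 4.68% (Wilson 95% interval 4.35% to 5.03%). The other clonotypes were in 1 table only, 5389 in that of the thymus and 8883 in that of the spleen. Because presence in both tables chose the members, their reads are given as a description. The label of the chain held: the constant gene was TRAC in 694 of the 700 in the thymus and in 695 in the spleen, and the rest had none assigned.

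The cells were iT cells, T cells that arose in vivo from iR9-ESC, a C57BL/6 (CD45.2+) mouse embryonic stem cell line with a doxycycline-inducible Runx1-p2a-Hoxa9 cassette in the Rosa26 locus. Hematopoietic progenitors induced from it were transplanted into irradiated B-NDG mice of 8 to 10 weeks, a CD45.1+ strain with a NOD background, the Prkdc scid mutation and no Il2rg, which lacks mature T, B and NK cells of its own. At week 6, 15000 CD4SP and CD8SP iT cells were sorted per tissue from these recipients, called iT-B-NDG mice. In the thymus the gate was CD45.2+ single-positive cells negative for a set of markers that included Ter119, CD11b, Gr1, NK1.1 and TCRγδ, and in the spleen it was CD45.2+ CD62L+ CD44- single-positive cells. The sorting gate given for the thymus thus did not list the naïve markers CD62L and CD44, although the study describes the sorted cells of both tissues by them. The number of mice behind each library, and whether both came from the same mice, were not stated in the sources used here. There was 1 library per tissue, so no difference between tissues had a replicate check, and the tissue, the gate and the library cannot be told apart. The thymus library held 918063 TCRα reads in 6089 clonotypes and the spleen library 1820314 in 9583. In these bulk libraries, fewer cells of a clonotype and less TCRα RNA per cell cannot be told apart.

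During T cell development the TCRα gene is assembled by joining 1 of many V genes to 1 of many J genes. The ends are trimmed, and terminal deoxynucleotidyl transferase may add nucleotides that no gene encodes. The joint lies in the CDR3, the loop that contacts the peptide held by the MHC molecule. A junction with few or no added nucleotides can be formed repeatedly in different cells, whereas a long insertion is seldom formed again. A joint that shifts the reading frame encodes no receptor, yet the cell can carry it on its other chromosome and still transcribe it.

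The CDR3 sequences below are those of the members with the highest mean share of TCRα reads. They are written from the conserved cysteine codon of V to the position of the conserved phenylalanine or tryptophan codon of J. In TRAJ7 that position holds ttg, a leucine codon. Capitals mark the inserted nucleotides between the aligned V and J or, where the alignments overlapped, the nucleotides that both could supply. Where 1 V gene is printed for a member, here and below, it is that of the thymus library. The capitals follow the library with the higher read share, which may have named another V gene. A rearranged CDR3 has no single genome position.
TRAV13-1–TRAJ39: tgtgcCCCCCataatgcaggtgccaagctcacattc
TRAV8D-2–TRAJ31: tgtgctacAGcaataacagaatcttcttt
TRAV16D-DV11–TRAJ7: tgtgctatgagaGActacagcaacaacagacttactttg
TRAV8-1–TRAJ11: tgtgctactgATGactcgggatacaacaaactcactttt
TRAV14D-1–TRAJ16: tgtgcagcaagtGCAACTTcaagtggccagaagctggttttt
TRAV4D-4–TRAJ12: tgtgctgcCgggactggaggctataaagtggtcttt
Of these, the first alone carried an insertion of over 1 nucleotide, a run of 5 cytosines. In 4 of them V and J overlapped, and in TRAV4D-4–TRAJ12 1 nucleotide was inserted. The genes lie in the TCRα locus of chromosome 14 (GRCm38, GENCODE M21). For example, TRAV13-1 is at chr14:53545014-53545525 and TRAJ39 at chr14:54179962-54180024, both on the plus strand and annotated as V and J gene segments.

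TRAV13-1–TRAJ39 was the most abundant TCRα clonotype of both libraries. Its thymus count was 98095 reads (10.7% of TCRα reads) and its spleen count 30264 (1.66%), 6.43-fold more in the thymus (exact binomial 95% interval 6.34 to 6.51). This clonotype alone held 40.6% of all member reads in the thymus and 9.43% of those in the spleen. With it left out of members and totals, the members held 17.5% of thymus and 16.2% of spleen TCRα reads. The Wilson and binomial intervals cover counting error only, since reads amplified by PCR, with no molecular identifier stated, are not independent molecules.

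The next member by mean share was out of frame. TRAV8D-2–TRAJ31, whose 29 nt CDR3 is printed above, had 17499 thymus reads (1.91%) and 4949 spleen reads (0.272%), at ranks 2 and 13. It and TRAV13-1–TRAJ39 were the 2 members among the 20 most abundant clonotypes of both libraries.
The members that followed were mostly higher in the spleen. TRAV16D-DV11–TRAJ7 had 240 thymus reads (0.0261%) and 10330 spleen reads (0.567%), a 21.7-fold higher share (19.1 to 24.8). TRAV8-1–TRAJ11, which the spleen table named TRAV8D-1–TRAJ11, had 6 thymus reads and 10012 spleen reads (0.550%). TRAV14D-1–TRAJ16 was an exception, with 3096 thymus reads (0.337%) and 1815 spleen reads (0.0997%). TRAV4D-4–TRAJ12 had 116 and 6447 reads, respectively, 0.0126% in the thymus and 0.354% in the spleen. Among these leading members, a high rank in 1 library could go with a low rank in the other. TRAV8-1–TRAJ11, with its 6 thymus reads, ranked 4 in the spleen and 5644 in the thymus.

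**Figure D1:**
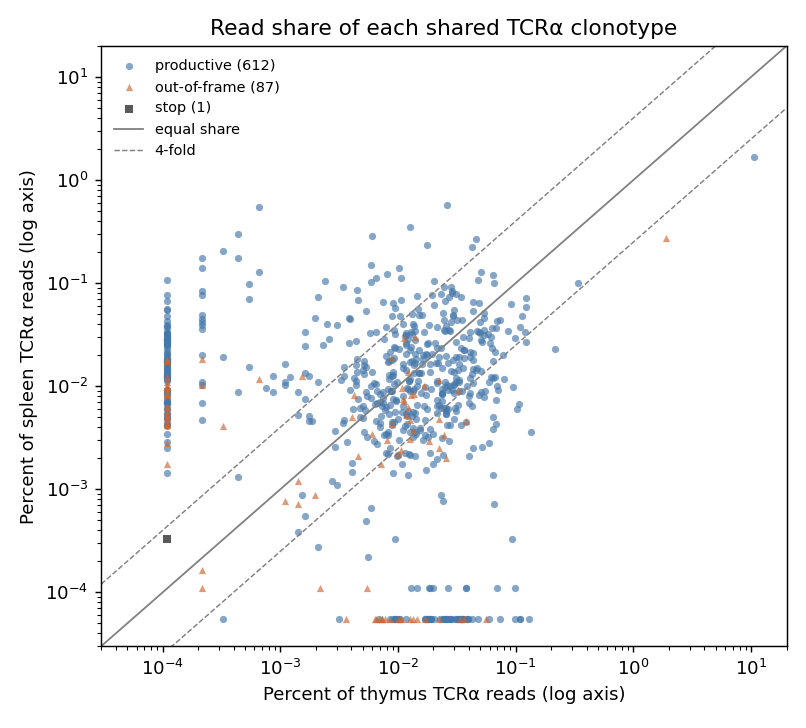
Percent of TCRα reads of each of the 700 shared clonotypes in the thymus (x, log axis) and in the spleen (y, log axis), with 1 point per clonotype, 612 productive, 87 out of frame and 1 with a stop codon. Points in the rows at the lowest values had 1 or a few reads in a library; the point at the upper right is TRAV13-1–TRAJ39, at 10.7% and 1.66%.

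The members are described in 2 sets by depth. In 471 of them each library held at least 10 reads, with medians of 130 thymus and 206 spleen reads. In the other 229 a library held fewer than 10. These included 177 members with 1 read in a library, 101 in the thymus and 76 in the spleen, which lie just inside the rule. No member had 1 read in both libraries, and the reads in the other library ranged from 3 to 1964 with a median of 223. Examples with 1 spleen read, picked after their values were seen, are shown to set beside the leading members.
TRAV7D-2–TRAJ37: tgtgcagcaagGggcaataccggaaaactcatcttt
TRAV16N–TRAJ31: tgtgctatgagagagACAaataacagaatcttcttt
TRAV14-1–TRAJ30: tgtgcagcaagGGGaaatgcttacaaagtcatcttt
They had 1200, 1005 and 997 thymus reads. With 1 spleen read the ratio is loosely bound: for TRAV7D-2–TRAJ37 the thymus share was 2379 times that of the spleen, with an interval reaching 94056. Just outside the rule, the most abundant clonotype absent from the other library was TRAV14N-1–TRAJ40 for the spleen, with 27883 reads (1.53%), and an out-of-frame TRAV6N-6–TRAJ56 for the thymus, with 6968 reads (0.759%). The limit that a count of 0 allows, 3 reads, was 0.000327% for the thymus library and 0.000165% for the spleen library.

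The share of clonotypes that were members depended on reads in both directions. In the thymus, 101 of 236 clonotypes of 1 read (42.8%, 36.6% to 49.2%) were also in the spleen, against 38 of 596 clonotypes of 10 to 30 reads (6.38%, 4.68% to 8.63%) and 115 of 561 of 301 to 1000 reads (20.5%, 17.4% to 24.04%). In the spleen the same ranges gave 24.4%, 2.42% and 15.1%. Clonotypes of 1 read were therefore found in the other tissue more often than those of 10 to 30 reads, by more than the counting intervals. The minimum base quality of the CDR3 averaged 34.1 in the library with 1 read and 38.2 in the other library for the same 177 members. Low quality was not particular to members. Over all clonotypes of 1 read its median was 35 in either library, and for the members among them 34 in the thymus and 33.5 in the spleen. At 10 to 30 reads the median was 38 in both libraries. The part of base quality in the higher sharing at 1 read was not tested. Among the 100 most abundant clonotypes, 33 in the thymus and 40 in the spleen were members.

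**Figure D2:**
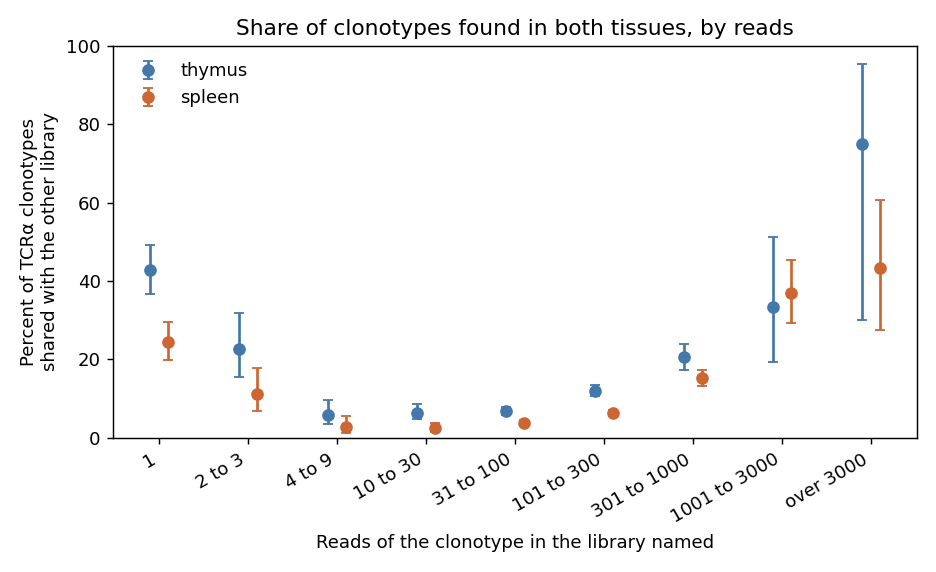
Percent of TCRα clonotypes shared with the other library (y) by the reads of the clonotype in the library named (x), as points with Wilson 95% intervals. In the thymus the share was 42.8% at 1 read, 6.38% at 10 to 30 reads and 20.5% at 301 to 1000 reads.

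Members had fewer inserted nucleotides than clonotypes of 1 tissue. With calls from the library of the higher share, 318 of 471 members with at least 10 reads in both (67.5%, 63.2% to 71.6%) had none, against 1555 of 5389 thymus-only clonotypes (28.9%, 27.7% to 30.1%) and 3847 of 8883 spleen-only clonotypes (43.3%, 42.3% to 44.3%). V and J overlapped in 225 of the 471 (47.8%), against 19.6% and 29.7%. Insertions of 3 nucleotides or more were in 30 of them (6.37%, 4.50% to 8.95%), against 40.4% and 29.9%. Each of these intervals lay apart from those of both 1-tissue groups. The 229 members with few reads in a library were unlike the 471: 40.2% had no inserted nucleotide (34.0% to 46.6%) and 37.1% had 3 or more (31.1% to 43.5%). The first share lay above that of thymus-only clonotypes and the second above that of spleen-only clonotypes, and each interval held the value of the other group. Of members with 1 spleen read, 42 of 76 (55.3%) had 3 or more inserted nucleotides.

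Members and others were also compared within ranges of reads, a comparison added after the data were seen. At 301 to 1000 thymus reads, 60.0% of 115 members (50.9% to 68.5%) and 30.3% of 446 thymus-only clonotypes (26.2% to 34.7%) had no inserted nucleotide. At 301 to 1000 spleen reads, the shares were 63.1% of 179 members (55.9% to 69.9%) and 49.0% of 1003 spleen-only clonotypes (45.9% to 52.0%). At 10 to 100 reads they were 64.3% of members against 27.9% of others in the thymus, and 60.4% against 42.1% in the spleen. At low spleen counts the difference was not seen: at 1 spleen read, 19 of 76 members (16.6% to 35.8%) and 33.9% of 236 others (28.2% to 40.2%) had no inserted nucleotide, and at 2 to 9 spleen reads 38.1% and 38.2%. At 1 thymus read it was 42.6% of members (33.4% to 52.3%) and 31.1% of others (23.9% to 39.4%). Above 1000 reads the intervals overlapped, at 90.5% of 63 members and 85.3% of 102 others in the spleen, and 53.8% of 13 and 57.1% of 21 in the thymus.

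**Figure D3:**
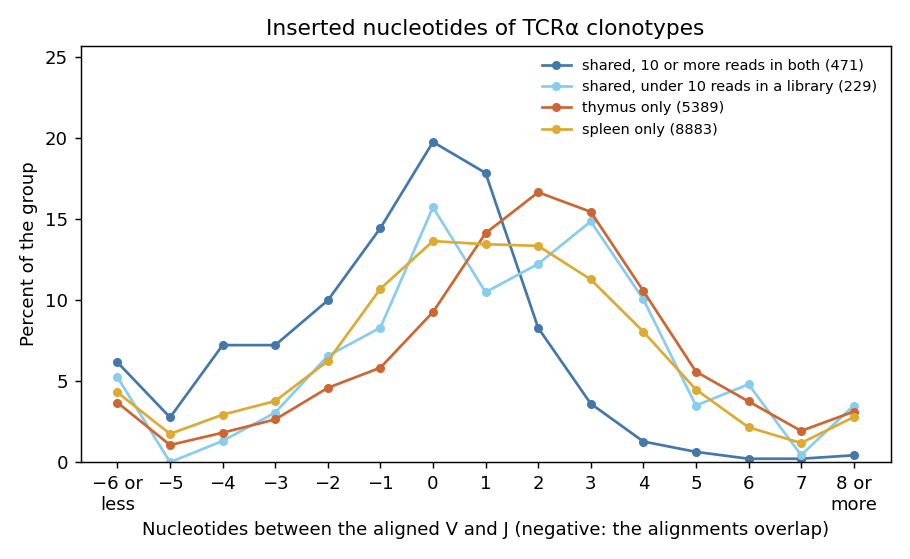
Percent of each group (y) by the number of nucleotides between the aligned V and J (x), where negative values mean that the alignments overlap. Members with 10 or more reads in both libraries peak at 0, and 6.37% of them have 3 or more, against 40.4% of thymus-only and 29.9% of spleen-only clonotypes.

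Trimming at the J end differed in the members with at least 10 reads in both. Those with few reads in a library had lost a mean of 2.86 nt of J, and 29.7% had lost none (24.2% to 35.9%). Members with at least 10 reads in both had lost a mean of 1.83 nt of J, against 2.78 nt in thymus-only and 2.71 nt in spleen-only clonotypes, and 39.1% had lost none (34.8% to 43.5%), against 28.5% and 30.8%. At the V end the means were 1.98, 2.04 and 1.95 nt, and the untrimmed shares were 39.5%, 40.5% and 41.7%, with overlapping intervals. Among the inserted nucleotides themselves, counted where 1 to 8 were inserted, guanine and cytosine made up 76.9% of 273 nt in those members, 70.6% of 11140 nt in thymus-only and 69.6% of 13882 nt in spleen-only clonotypes. In the members with few reads in a library it was 64.1% of 395 nt, and over all members 69.3% of 668 nt.

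The 30 members with at least 10 reads in both and 3 or more inserted nucleotides were few beside the 318 without insertion. Examples are printed for that reason, the 3 with the highest mean share after TRAV13-1–TRAJ39 and 1 with the same V gene in both tables, picked after the values were seen.
TRAV14-2–TRAJ23: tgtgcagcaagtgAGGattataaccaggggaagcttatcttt
TRAV14D-1–TRAJ21: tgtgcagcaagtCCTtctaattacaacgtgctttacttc
TRAV7D-3–TRAJ13: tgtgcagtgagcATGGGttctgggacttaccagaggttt
TRAV14-1–TRAJ49: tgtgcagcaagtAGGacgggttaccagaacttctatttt
TRAV14-2–TRAJ23 had 625 thymus and 668 spleen reads, and TRAV14-1–TRAJ49 had 128 and 308. In both the V gene was the same in the 2 tables. TRAV14D-1–TRAJ21 had 590 and 70 reads and TRAV7D-3–TRAJ13 had 399 and 383, with another V gene of the same family named in the spleen. Under the V gene named in the spleen, 2 nucleotides of TRAV7D-3–TRAJ13 are inserted in place of 5. Of all 30, 24 had 3 or more inserted nucleotides by the genes of both tables. Of the 30, 6 had the same first V gene in both tables (interval 9.51% to 37.3%), and 7 had V genes of different families. Of the 85 members with 3 or more inserted nucleotides and fewer than 10 reads in a library, 73 had the same first V gene (85.9%, 76.9% to 91.7%).

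Across all members, the first J gene was the same in both tables for 699 of 700, and the exception had 2 thymus and 3 spleen reads. For V, 333 members had the same first V gene (47.6%), a further 59 had tied top V genes in common, 216 had other genes of the same family, and 92 (13.1%) had different families. The mouse V locus holds near-identical copies, marked D and N in their names, and a V gene named here is uncertain within its family. Counting all V genes listed as hits, 215 members (30.7%) had none in common between the libraries. These were 205 of the 471 with at least 10 reads in both (43.5%) and 10 of the other 229 (4.37%). Why the V genes differed was not tested. MiXCR lists a CDR3 once per library, under the V gene that its reads favour. Different families were named for 86 of the 471 members with at least 10 reads in both (18.3%) and for 6 of the other 229 (2.62%). The most frequent pair was TRAV7 with TRAV14, in 27 members, followed by TRAV6 with TRAV12 in 19 and TRAV10 with TRAV14 in 12. The sequences below show members given a V of 1 family in the thymus and of another in the spleen, picked after the values were seen.
TRAV7-2 or TRAV14D-1 with TRAJ30: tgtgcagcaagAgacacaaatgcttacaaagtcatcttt
TRAV14-3 or TRAV7-2 with TRAJ18: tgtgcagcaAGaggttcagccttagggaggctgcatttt
TRAV12D-3 or TRAV6-4 with TRAJ23: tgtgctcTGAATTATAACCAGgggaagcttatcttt
In the first and second, the V part reads tgtgcagca in either family. The TRAJ30 member had 1231 reads in the thymus, under TRAV7-2, and 66 in the spleen, under TRAV14D-1. The TRAJ18 member had 93 and 2550 reads, and the TRAJ23 member 284 and 1439. From a CDR3 alone, 1 rearrangement and 2 cannot be told apart.

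The CDR3s of members were shorter. Productive members with at least 10 reads in both had a median CDR3 of 39 nt (mean 39.1, SD 3.50, n = 433 clonotypes), against means of 40.8 nt (SD 4.94, n = 3933) in thymus-only and 40.7 nt (SD 4.89, n = 6039) in spleen-only productive clonotypes. A length of 36 nt was found in 24.5% of those members (20.7% to 28.7%), against 14.2% and 15.2%, and a length of 45 nt in 6.24% (4.32% to 8.92%), against 14.6% and 15.1%. The 179 productive members with few reads in a library had a mean of 40.5 nt (SD 4.71).

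**Figure D4:**
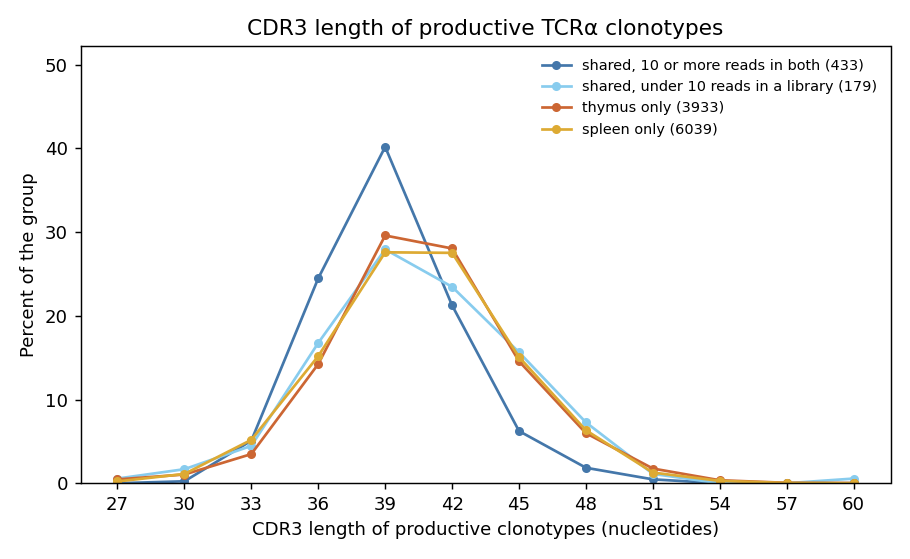
Percent of productive clonotypes (y) by CDR3 length in nucleotides (x) in 4 groups. Members with 10 or more reads in both libraries peak at 39 nt with 40.2%, and 6.24% of them are 45 nt long, against 14.6% of thymus-only and 15.1% of spleen-only clonotypes.

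The amino acids of the CDR3 centre, taken without the first 3 and the last 4 residues, are given over all residues of productive clonotypes. Members with at least 10 reads in both had more asparagine, at 19.1% against 16.4% in thymus-only and 16.8% in spleen-only clonotypes, and more tyrosine, at 7.91% against 6.65% and 6.65%. They had less proline (0.650% against 2.17% and 1.98%), less leucine (0.802% against 1.85% and 1.92%) and less valine (0.802% against 1.55% and 1.60%). Glycine, the most frequent residue of the centre, made up 19.9%, 20.6% and 20.3%. The productive members with few reads in a library did not share the higher asparagine and tyrosine. Asparagine made up 16.01% and tyrosine 5.68% of their centre residues, both below the 1-tissue groups. Their glycine, at 22.1%, was above both groups. Their proline (1.64%) and leucine (1.72%) were below both groups by less, and their valine (1.64%) was slightly above. Residues of 1 CDR3 are not independent, so these values have no interval. Asparagine and tyrosine are frequent in the 5′ ends of mouse J genes.

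The same CDR3 protein was encoded by several nucleotide sequences more often among members. Of 433 productive members with at least 10 reads in both, 276 (63.7%, 59.1% to 68.1%) encoded a protein that another TCRα clonotype of either library also encoded, against 1024 of 3933 thymus-only (26.0%, 24.7% to 27.4%) and 1847 of 6039 spleen-only clonotypes (30.6%, 29.4% to 31.8%). Among the 179 productive members with few reads in a library it was 25.1% (19.4% to 32.0%). The 612 productive members encoded 562 proteins, of which 43 were encoded by 2 or more members. The protein with the most members joined TRAJ22 to V genes of several families. It was encoded by 6 nucleotide sequences in the 2 libraries, of which 4 were members, shown here to compare their junctions.
TRAV7-4: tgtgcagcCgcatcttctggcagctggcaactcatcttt
TRAV14D-1: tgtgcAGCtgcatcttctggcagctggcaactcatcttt
TRAV4D-4, first: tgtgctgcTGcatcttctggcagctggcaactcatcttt
TRAV4D-4, second: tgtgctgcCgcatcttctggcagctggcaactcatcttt
The 4 sequences share their J part and differ near the junction. The second sequence under TRAV4D-4 was named TRAV5-4, of a different family, in the spleen, where its read share was higher. In the spleen the TRAV14D-1 sequence was named TRAV7-4, also of a different family, and the TRAV7-4 sequence TRAV7N-6. In the order printed they had 325, 418, 84 and 40 thymus reads and 545, 262, 138 and 185 spleen reads, so none was abundant. Together they held 0.0944% of thymus and 0.0621% of spleen TCRα reads. A TRAJ30 protein of 12 residues was also encoded by 6 sequences, with 4 members, of which the leading 2 are printed.
TRAV4-4-DV10: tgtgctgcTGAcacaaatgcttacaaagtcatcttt
TRAV4D-4: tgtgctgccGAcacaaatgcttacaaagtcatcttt
The first had 397 thymus and 46 spleen reads and the second 212 and 113. They encode the same protein in the same frame from V genes of 1 family.

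Members used 44 of the 53 J genes and 22 V families. The J genes with the most members were TRAJ23 with 57, TRAJ31 with 45, TRAJ22 and TRAJ27 with 44 each, and TRAJ37 with 41. TRAJ23 (chr14:54196081-54196140) was the J gene of 8.14% of members, against 5.20% of thymus-only and 4.998% of spleen-only clonotypes. Of J genes with at least 100 clonotypes, the share that was shared was highest for TRAJ58 at 8.15% (4.61% to 14.0%), TRAJ13 at 7.57% (5.09% to 11.1%) and TRAJ23 at 7.30% (5.68% to 9.34%). Counting only members with at least 10 reads in both, TRAJ23 came first at 6.27%, ahead of TRAJ27 at 6.03%, TRAJ22 at 5.02%, TRAJ13 at 4.93% and TRAJ58 at 4.44%, since 6 of the 11 TRAJ58 members had that many. Over all members, it was lowest for TRAJ45 at 1.12% (0.381% to 3.24%), TRAJ53 at 1.32% (0.364% to 4.70%) and TRAJ6 at 2.27% (1.05% to 4.87%). The interval of TRAJ45 lay below that of TRAJ23, whereas most neighbours in this order overlapped.

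Position along the J cluster differed between the 2 sets of members. Rearrangement of the TCRα locus is known to begin at J genes far from the constant gene and to move toward it. Over all members, the share of clonotypes that were shared was 4.14% (3.39% to 5.05%) for TRAJ61 to TRAJ45, the range farthest from the constant gene TRAC, 4.54% (4.08% to 5.05%) for TRAJ44 to TRAJ24 and 5.06% (4.52% to 5.66%) for TRAJ23 to TRAJ1, with overlapping intervals. The median distance from J to TRAC was 28.2 kb for members and 30.6 kb for either 1-tissue group. Among members with at least 10 reads in both, 9.55% used TRAJ61 to TRAJ45 (7.22% to 12.5%), against 20.5% of the members with few reads in a library (15.8% to 26.2%), 14.8% of thymus-only clonotypes (13.9% to 15.8%) and 15.0% of spleen-only clonotypes (14.3% to 15.8%). The first set thus lay below both 1-tissue groups, and the second at or above them.

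**Figure D5:**
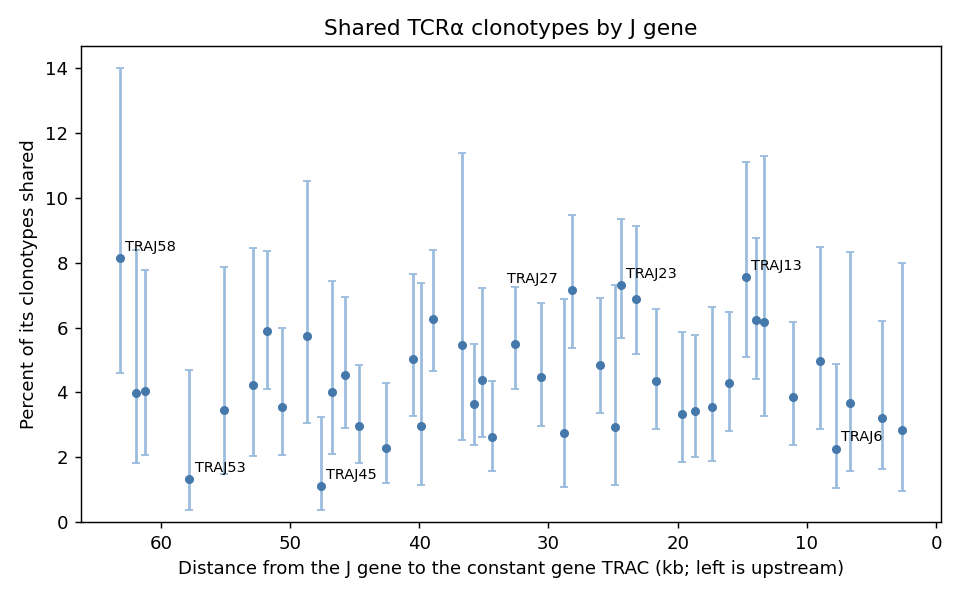
Percent of the clonotypes of each J gene that were shared (y), with Wilson 95% intervals, by the distance of the J gene to the constant gene TRAC in kb (x, upstream on the left), for J genes with at least 100 clonotypes. TRAJ58, TRAJ13 and TRAJ23 are highest, at 8.15%, 7.57% and 7.30%, with overlapping intervals, and TRAJ45 and TRAJ53 lowest, at 1.12% and 1.32%; with members of at least 10 reads in both alone, TRAJ23 is at 6.27% and TRAJ58 at 4.44%.

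Of V families, TRAV6 had 122 members, TRAV7 110, TRAV14 98, TRAV16 91 and TRAV12 65. Of families with at least 100 clonotypes, TRAV16 had the highest share, with 8.71% of 1045 clonotypes shared (7.15% to 10.6%), followed with overlapping intervals by TRDV1 at 6.80% (3.74% to 12.1%) and TRAV14 at 6.55% (5.40% to 7.91%). It made up 13.0% of members, against 6.27% of thymus-only and 6.93% of spleen-only clonotypes. Of the 91 TRAV16 members, 67 had no inserted nucleotide (73.6%), against 37.3% of 338 thymus-only and 44.3% of 616 spleen-only TRAV16 clonotypes. The lowest shares were those of TRAV11 at 0.599% (0.106% to 3.31%), TRAV9 at 1.56% (0.876% to 2.78%) and TRAV15 at 2.33% (1.07% to 4.98%). TRAV11 joined to TRAJ18 forms the invariant chain of NKT cells. This pair had no member, with 4 clonotypes in the thymus only and 11 in the spleen only. These are too few to set its share apart from the 4.68% of all TCRα clonotypes. The pair of mucosal-associated invariant T cells, TRAV1 with TRAJ33, was in neither library.

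The read share of a shared CDR3 often differed between the libraries, less so where each held at least 10 reads. Of 700 members, 339 (48.4%) had read shares within 4-fold of each other, 183 (26.1%) were at least 4-fold higher in the spleen and 178 (25.4%) at least 4-fold lower. Over all 14972 TCRα clonotypes, with an absent one set to its 3-read limit, the shares were 53.1% higher and 36.6% lower, and over the 389 TCRβ clonotypes found in both tissues they were 20.1% and 29.6%. The median log2 ratio of spleen to thymus share was -0.28 (order-statistic 95% interval -0.55 to 0.04) over all members. The totals behind these shares include TRAV13-1–TRAJ39, at 10.7% of thymus and 1.66% of spleen reads. Leaving it out of them would lower every other ratio, and the ratios were not recomputed without it. Among the 471 with at least 10 reads in both, the median log2 ratio was -0.50 (-0.71 to -0.23), and 334 (70.9%) lay within 4-fold, 52 above and 85 below. The Spearman correlation of the 2 read shares was 0.226 in this set and -0.030 over all members. Among the other 229, 131 were at least 4-fold higher in the spleen and 93 at least 4-fold lower, where the low count that defines this set fixes most of the distance. Within the 471, the median log2 ratio was -0.26 (-0.56 to 0.00) for the 318 without insertion and -0.80 (-1.07 to -0.44) for the 153 with at least 1.

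The ends of the range were members with 1 read in a library: TRAV7D-2–TRAJ37, printed above, and TRAV6-1–TRAJ11, with 1 thymus read and 1964 spleen reads. The next members were chosen from both ends of the set with at least 10 reads in each library. TRAV12N-2–TRAJ22 had 605 thymus reads and 13 spleen reads, a 92.3-fold higher share in the thymus (interval up to 174). TRAV13D-4–TRAJ37, whose 12 nt CDR3 lacks the conserved cysteine codon, was 46.6-fold higher there, and TRAV7-2–TRAJ30, printed above, 37.0-fold. At the other end, TRAV14D-2–TRAJ13 had 55 thymus reads and 5219 spleen reads, with an interval of the spleen-to-thymus ratio of 36.7 to 63.6. TRAV14N-3–TRAJ31 had 22 and 1928 reads (29.1 to 70.7). Both of these had no inserted nucleotide.
TRAV12N-2–TRAJ22: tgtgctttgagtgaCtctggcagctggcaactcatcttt
TRAV14D-2–TRAJ13: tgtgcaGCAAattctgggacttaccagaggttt
TRAV14N-3–TRAJ31: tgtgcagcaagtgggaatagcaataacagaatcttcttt
They are shown as members from both ends of the ratios among those with at least 10 reads in each library. In the last, V and J abut, so it has no capitals.

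Of the members, 612 were productive, with no frameshift or stop codon in the CDR3 (87.4%, 84.8% to 89.7%), against 73.0% of thymus-only and 68.0% of spleen-only clonotypes. This call did not require the conserved cysteine codon, so TRAV13D-4–TRAJ37, with its 12 nt CDR3, was counted as productive. Of the other members, 1 had a stop codon, with 1 thymus and 6 spleen reads. The productive share moved with reads. At 301 to 1000 thymus reads it was 96.5% of members (91.4% to 98.6%) and 95.5% of thymus-only clonotypes (93.2% to 97.1%), and at 301 to 1000 spleen reads 96.6% (92.9% to 98.5%) and 93.3% (91.6% to 94.7%), with overlapping intervals. At 10 to 100 reads it was 85.2% (79.6% to 89.5%) of members against 65.9% (64.1% to 67.6%) in the thymus, and 77.7% (70.1% to 83.8%) against 56.9% (55.3% to 58.4%) in the spleen.

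The 87 out-of-frame members (12.4%) held 2.67% of thymus and 0.748% of spleen TCRα reads, and 0.764% and 0.477% without TRAV8D-2–TRAJ31. Of these, 38 had at least 10 reads in both libraries and 41 had 1 read in a library. No inserted nucleotide was found in 29 of the 38 (76.3%, 60.8% to 87.0%), against 32.3% of 1434 thymus-only and 52.7% of 2812 spleen-only out-of-frame clonotypes. V and J overlapped in 26 of the 38 (68.4%, 52.5% to 80.9%), against 21.5% and 37.0%. Of the 49 out-of-frame members with few reads in a library, 46.9% had none (33.7% to 60.6%), and over all 87 it was 59.8% (49.3% to 69.4%), which overlaps the spleen-only interval of 50.9% to 54.5%. Insertions of 3 nt or more were in 25.3% of the 87, against 25.8% of the spleen-only and 41.3% of the thymus-only out-of-frame clonotypes. The next out-of-frame members with at least 10 reads in both were these.
TRAV6-6–TRAJ22: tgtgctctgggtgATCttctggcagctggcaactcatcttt
TRAV7N-5–TRAJ13: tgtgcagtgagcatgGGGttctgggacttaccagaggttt
TRAV3N-3–TRAJ27: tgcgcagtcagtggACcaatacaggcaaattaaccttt
TRAV6-6–TRAJ22 had 128 thymus and 550 spleen reads, TRAV7N-5–TRAJ13 had 348 and 84, and TRAV3N-3–TRAJ27 had 298 and 168. TRAV7N-5–TRAJ13 has 3 guanines inserted, and its CDR3 is 40 nt long, while that of the productive TRAV7D-3–TRAJ13 printed above is 39 nt. The median log2 ratio of spleen to thymus share was -1.01 (-1.81 to -0.65) for the 38, against -0.38 (-0.65 to -0.13) for the 433 productive members with at least 10 reads in both, and 26 of the 38 lay within 4-fold.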

How the data were processed

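TCRα and TCRβ cDNA was amplified with the SMARTer Mouse TCRαβ Profiling Kit and sequenced on a MiSeq. The authors assembled clonotypes with MiXCR 2.1.12 against its own gene library and deposited, per CDR3, the read count without normalization, its fraction of all reads of both chains, and the lowest base quality score of the CDR3. Molecular identifiers and filters are not given in the sources used here.

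From the deposited counts, clonotypes whose first J gene was a TRAJ gene were taken as TCRα, and shares were computed over TCRα reads. The deposited fraction was not used for them. Depth was 918063 thymus and 1820314 spleen TCRα reads, so that 3 reads were 0.000327% and 0.000165%. Members had the same CDR3 nucleotides in both tables. For counts and junctions, the genes of a member were taken from the library with its higher read share, and inserted nucleotides from the distance between aligned V and J. Where 1 V gene is printed for a member, it is that of the thymus library, also where the spleen share was higher. With 1 library per tissue no test was run: shares have Wilson 95% intervals, medians order-statistic intervals, and ratios exact binomial intervals.

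The members and lists were chosen with earlier results of these data known. Named were the 10 members with the highest mean share, the 5 with the largest and smallest ratios among those with 10 reads in each library, the 5 leading out-of-frame members, the proteins with most members, the 3 most abundant clonotypes absent from the other library, and J genes and V families by members and by share; those that matter are given. Alternatives were a minimum of 2 or 10 reads, same J, same V and J, equal reads, merging of clonotypes that differ by 1 nt and at least 20-fold in reads, productive clonotypes only, and amino acid matching. Ratios and merging were tested on simulated data. Gene positions are those of GENCODE M21 (GRCm38), matched by name; the build behind the gene library was not given in the sources used here. Python 3.11.15, numpy 2.4.6, pandas 2.3.3, scipy 1.17.1 and matplotlib 3.10.9 were used. The other experiments of the study were not analysed here.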

Additional observations from a re-analysis of the deposited data

How the results depend on the processing

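Of 82 values recomputed under alternative settings, 49 stayed within their counting interval or, for counts, within 1.5 times, and 33 moved. A reversed sign could not be called. It was defined for the median log2 ratio alone, whose interval (-0.55 to 0.04) spans both signs. With at least 2 reads in each library, members held 24.2% of TCRα reads (thymus) and 15.8% (spleen). Of these members, 91.2% were productive, 66.5% had no inserted nucleotide, 35.2% had the same V and J gene in both tables, and 9.94% used TRAJ61 to TRAJ45. In the spleen 15.9% were at least 4-fold higher and 19.5% at least 4-fold lower. With at least 10 reads in each, the same values were 23.8%, 13.5%, 91.9%, 67.5%, 32.9%, 9.55%, 11.04% and 18.0%. Members with the same first V and J gene numbered 332 and held 18.2% and 7.90% of reads; 53.9% had no inserted nucleotide, 22.3% used TRAJ61 to TRAJ45, the median CDR3 was 41 nt, 35.8% were at least 4-fold higher in the spleen and 32.5% lower. At equal reads, members held 25.3% of thymus reads, and 20.6% were at least 4-fold lower in the spleen. Merging near-identical clonotypes gave 17.5% of spleen reads. With productive clonotypes only, the members held 27.9% (thymus) and 19.7% (spleen) of productive TCRα reads, and matching by amino acids gave 42.6% and 34.8% of them. Over all TCRα reads, the productive members held 23.6% and 16.9%. The same V and J were found in 86.7% with V matched by family and in 55.9% by any tied top gene. Fewer members by construction accompany the read minimums and gene matches; the cause of the other moves was not tested. Taking genes from the library with the lower share, an alternative chosen after seeing the data, gave 59.7% without insertion and 13.3% with TRAJ61 to TRAJ45. No paired analysis was possible because there was 1 library per tissue and no test. At 1 to 9 reads a member's ratio is limited by depth, and V names within a family are uncertain.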
